A study of Mus musculus with 3 samples.

Results

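The TOM complex is the entry gate through which precursors reach mitochondria, and 8 genes, 7 for its subunits and 1 for a cytosolic partner, were read here in mouse stromal cells that overexpressed NELL2 or had Fn1 knocked down. The members were Tomm5, Tomm6, Tomm7, Tomm20, Tomm22, Tomm34, Tomm40 and Tomm70a, matched by gene name among the 51826 rows of the expression table. Each name matched 1 row. Tomm5 was picked on its own fall with NELL2 overexpression, so its ratio in that comparison, and in any other that uses the NELL2 library, is given as a description. The other 7 genes were taken by name as the rest of the group.

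The cells were ST2, a stromal line from mouse bone marrow with osteoblast and adipocyte potential. All were transfected with lipofectamine 3000, and each group was 1 library. Control cells received the empty vector and a control siRNA, NELL2 overexpression cells received a NELL2 construct and the control siRNA, and Fn1 knockdown cells received the vector and an siRNA against Fn1, with siRNA at 30 nM. NELL2 is a secreted glycoprotein and Fn1 encodes fibronectin, a matrix protein, and the design asks how the transcriptome of these cells changes when each is altered. Nothing in the sources ties the libraries to clones or to separate cultures.

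Most mitochondrial proteins are made in the cytosol and must cross the outer membrane. Tomm20, Tomm22 and Tomm70a are receptors that recognise precursors, Tomm40 forms the channel, and Tomm5, Tomm6 and Tomm7 are small subunits that sit beside the channel and bear on its assembly and stability. Tomm34 is a cytosolic cochaperone that binds precursors and is not a subunit of the membrane complex. In stromal cells this pathway is a housekeeping one.

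Values were FPKM, that is fragments scaled by transcript length and by the mapped total of the library. Ratios were log2 differences of FPKM + 1, and a gene was called at a difference of 1 or more in size, a 2-fold change, with 1 FPKM or more in either library. With 1 library in each group there was no test, and every difference below is one between libraries. Depth was estimated at 23000000 to 24200000 fragments per library, and 12220 to 12329 genes reached 1 FPKM. Nell2 rose from 0.640 FPKM in control cells to 326 FPKM with its construct, and it was at 1.06 FPKM in Fn1 knockdown cells. Fn1 was at 2802 FPKM in control cells, 2489 FPKM with NELL2 and 137 FPKM after knockdown, which left 4.88% of the control level. All 10 stromal marker genes were at 7.40 FPKM or more in every library, while 10 marker genes of other cell types stayed under 1 FPKM. Bulk values cannot tell fewer cells from less RNA per cell.

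In the control library the 8 members spanned 9.78 to 56.1 FPKM, and all 8 passed the filter in every library. Tomm22 was the highest, at 56.1 FPKM. Tomm5, Tomm40, Tomm70a and Tomm20 followed at 47.1, 44.7, 42.4 and 40.7 FPKM. The counting interval of each of these 4 overlapped that of its neighbour in the order. Tomm5 was clear of Tomm70a and Tomm20, and Tomm40 of Tomm20, but by small gaps. These gaps depend on the median transcript length from which the fragments of each gene were estimated. Tomm7 was at 22.9 FPKM, Tomm34 at 13.5 FPKM and Tomm6 at 9.78 FPKM, with intervals that did not overlap. With NELL2 overexpression Tomm5 moved from the second place to the lowest, where its interval overlapped that of Tomm34. The other genes kept their order but for Tomm20 and Tomm70a, and Tomm6 and Tomm34, which changed places. In the Fn1 knockdown library Tomm5 was again second, with an interval that overlapped that of Tomm40.

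**Figure D1:**
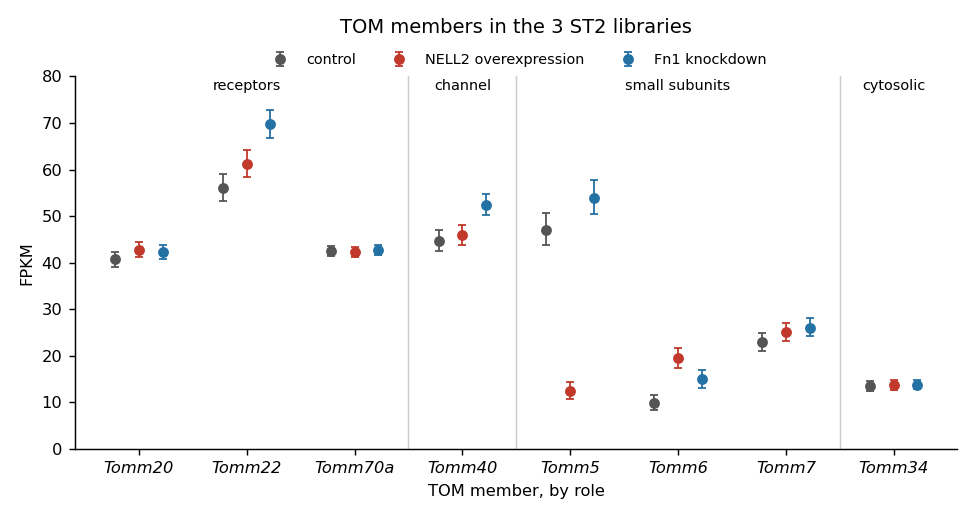
FPKM (y axis) of the 8 TOM members (x axis, grouped by role) in each of the 3 libraries (control, NELL2 overexpression, Fn1 knockdown), 1 point per library, with bars for the 95% Poisson interval of the estimated fragments, which covers counting error only. Tomm5 stood at 12.4 FPKM with NELL2 against 47.1 and 54.0 FPKM in the other libraries, and Tomm6 was the 1 member whose 3 bars were all apart.

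Tomm5, a small subunit, lies on GRCm38 chromosome 4, 45105208 to 45108114, minus strand (ENSMUSG00000078713.8). Its level was 47.1 FPKM in control cells, 12.4 FPKM in cells with the NELL2 construct and 54.0 FPKM in Fn1 knockdown cells. The NELL2 library stood alone and low. With NELL2 the level was 26.3% of the control, a log2 ratio of -1.84, with a 95% exact binomial interval of 22.4 to 30.9% that rests on about 714 and 194 fragments and covers counting error only. After Fn1 knockdown it was 115% of the control, with an interval of 104 to 127%. The Fn1 knockdown library was 4.36-fold above the NELL2 library.

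In the control library Tomm5 stood above 88.1% of the genes at 1 FPKM or more, and in the NELL2 library above 56.5%. Of all 12572 genes compared, 8 had a lower ratio with NELL2. Among the 6150 genes at 10 FPKM or more in the control it ranked 3rd, after Gm27640 and Pcdhgb8, which are named here because of that rank. The background of genes that fell 2-fold with NELL2 was 0.278% (35 of 12572). It was 0.248% (6 of 2421) among genes whose control level was within 2-fold of that of Tomm5, and 0.45% (2 of 444) among genes whose annotated protein has 100 residues or fewer, by the median over coding transcripts. Tomm5 is itself counted in all 3 shares, and since it was picked for its fall nothing is read from them.

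No exon of Tomm5 overlaps another annotated gene. The only near-identical transcript found for it, from the processed pseudogene Gm8069, was at 0.060 FPKM with NELL2 and listed at 0 in the other libraries. The gene has 4 coding transcripts of 442 to 738 bases, and their separate levels were not analysed here. The neighbouring genes were also read. Fbxo10, which encodes a ubiquitin ligase subunit and lies 20604 bases away, was at 4.64, 5.04 and 4.67 FPKM in control, NELL2 and Fn1 knockdown cells. Gm12566, a pseudogene on the other side, was listed at 0 in all 3, and the nearest coding gene there, Frmpd1, was at 0.031 FPKM or less.

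The 250 bases before the RefSeq start of Tomm5 are shown beside those of Tomm70a, the member that moved least in both comparisons, so that the window of the gene that fell can be read against one that stayed level. Both are written on the gene's own strand, GRCm38.p6, chr4:45108114-45108363 minus for Tomm5 and chr16:57121464-57121713 plus for Tomm70a. Capitals mark matches to the motifs searched.
Tomm5: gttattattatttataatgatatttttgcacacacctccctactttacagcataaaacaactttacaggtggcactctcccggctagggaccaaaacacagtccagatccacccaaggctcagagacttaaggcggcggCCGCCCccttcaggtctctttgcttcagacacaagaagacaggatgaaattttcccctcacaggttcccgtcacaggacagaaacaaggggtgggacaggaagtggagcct
Tomm70a: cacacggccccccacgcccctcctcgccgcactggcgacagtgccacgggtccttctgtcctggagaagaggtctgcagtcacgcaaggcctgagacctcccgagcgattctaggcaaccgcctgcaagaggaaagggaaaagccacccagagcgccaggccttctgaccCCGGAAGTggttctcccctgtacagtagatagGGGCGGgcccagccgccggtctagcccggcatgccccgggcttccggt

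The motifs named here were searched for on both strands of these windows, and 7 of the 8 members had a window. The GC box, GGGCGG, was present for Tomm5, Tomm20, Tomm34, Tomm40 and Tomm70a, and 32.7% of all 32851 windows hold it. In Tomm5 it stood once, 111 to 106 bases before the start. An ETS motif, searched only as CCGGAAGT and found in 2.88% of windows, was present for Tomm70a alone, 80 to 73 bases before the start. The Tomm5 window holds AGGAAGTG, which shares GGAAGT with that string and was not searched for. An E-box, CACGTG, found in 6.02% of windows, was present for Tomm20 alone. A part of the NRF1 motif, GCGCATGC, and a YY1 motif, AANATGGCG, are in 2.26% and 1.12% of windows and were in no member's window. None of these motifs overlap in the members. The Tomm5 window had a GC content of 48.8%, the lowest of the members' windows, and that of Tomm70a had 66.8%. Only the exact strings given were searched, so a window without a match may hold another spelling of the same motif. These are descriptions of letters and not of binding sites.

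Tomm6, another small subunit, lies on chromosome 17, 47686646 to 47688386, minus strand (ENSMUSG00000033475.15). Its level was 9.78 FPKM in control cells, 19.4 FPKM in cells with the NELL2 construct and 14.9 FPKM in Fn1 knockdown cells. The control library was the lowest of the 3. With NELL2 the level was 198% of the control (95% counting interval 163 to 243%), a log2 ratio of 0.92, just short of the 2-fold call. After Fn1 knockdown it was 152% (124 to 188%), a log2 ratio of 0.56. No member was called higher with NELL2, where the background was 0.374% (47 of 12572). At a 1.5-fold cutoff Tomm6 was the 1 member called higher, against a background of 1.54% (193 of 12572).

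The value of Tomm6 is uncertain because the gene shares exons with another. Gm21981 (ENSMUSG00000079444.9, chromosome 17, 47686739 to 47694455, minus strand) has 1 annotated transcript of 9 exons that runs through Tomm6 and its upstream neighbour Prickle4. It shares 656 exon bases with the coding transcripts of Tomm6 on the same strand. Its seventh exon, 47687899 to 47688839, also holds the whole 250-base window before the start of Tomm6, at 47688387 to 47688636.

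Gm21981 differed in the opposite direction to Tomm6. Its level was 14.1 FPKM in control cells, 10.2 FPKM with NELL2 and 12.3 FPKM after Fn1 knockdown. Weighted by transcript length, the fragments of both genes together came to about 1033, 966 and 1051, and after division by the estimated depth of each library the sum was at 90.8% of the control with NELL2 and 96.7% after Fn1 knockdown. Tomm6 gave about 151 of the 1033 control fragments, 309 of the 966 with NELL2 and 242 of the 1051 after Fn1 knockdown. The plain sum of FPKM, in which the short gene weighs more, went the other way, from 23.9 in the control to 29.6 with NELL2 and 27.2 after Fn1 knockdown. Prickle4, which encodes a LIM domain protein, was at 0.268, 0.494 and 0.084 FPKM. Usp49, a deubiquitinase gene that shares 93 exon bases with Tomm6 on the opposite strand, was at 2.45, 2.42 and 1.90 FPKM, and the antisense gene Tomm6os stayed at 0.270 FPKM or less. How reads were divided among these genes was not tested.

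**Figure D2:**
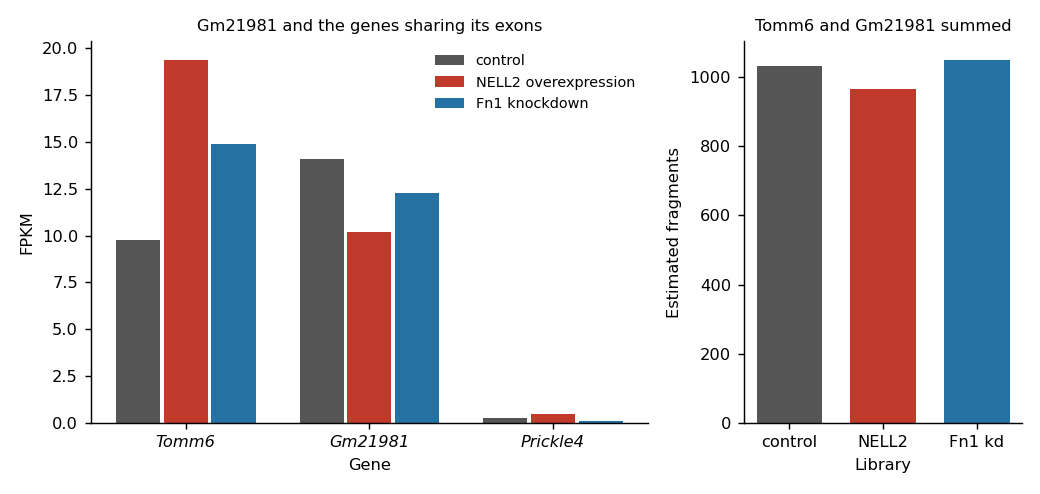
Left, FPKM (y axis) of Tomm6, Gm21981 and Prickle4 in the 3 libraries, where Gm21981 shares exons with each of the other genes. Right, estimated fragments (y axis) of Tomm6 and Gm21981 together per library, 1033 in the control, 966 with NELL2 and 1051 after Fn1 knockdown, not scaled for depth, while Tomm6 alone was higher and Gm21981 alone was lower than in the control in both.

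Tomm7, the third small subunit, lies on chromosome 5, 23838944 to 23844161, minus strand. It was at 22.9, 25.1 and 26.1 FPKM in control, NELL2 and Fn1 knockdown cells, with log2 ratios of 0.13 and 0.18. The counting interval of the first ratio held 100% of the control, and that of the second, 102 to 127%, did not. Of the small subunits after Fn1 knockdown, Tomm5 and Tomm7 stood at 115% and 114% of the control and Tomm6, with the limit given above, at 152%.

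Tomm40, the channel, lies on chromosome 7, 19701313 to 19715438, minus strand. Its level was 44.7 FPKM in control cells, 46.0 FPKM with NELL2 and 52.5 FPKM after Fn1 knockdown. The first pair differed by less than the counting error (103%, interval 96.0 to 110%), and the Fn1 knockdown library was at 117% (110 to 125%). Relative to the channel, Tomm5 was at 105% of Tomm40 in the control, 27.0% with NELL2 and 103% after Fn1 knockdown. Tomm22 kept a ratio to Tomm40 of 126%, 133% and 133% in the same libraries. The paralog Tomm40l was at 10.1, 9.64 and 10.0 FPKM and had log2 ratios of -0.062 and -0.014.

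Among the receptors, Tomm22 (chromosome 15, 79670861 to 79673400, plus strand) was at 56.1, 61.2 and 69.7 FPKM in control, NELL2 and Fn1 knockdown cells. It was highest after Fn1 knockdown, at 124% of the control (interval 116 to 133%), and at 109% with NELL2 (102 to 117%). These counting intervals leave out variation between cultures, which 1 library per group cannot show.

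Tomm20 (chromosome 8, 126930667 to 126945844, minus strand) was at 40.7, 42.7 and 42.2 FPKM. Tomm70a (chromosome 16, 57121703 to 57156705, plus strand) was at 42.4, 42.3 and 42.7 FPKM. Both were level across the 3 libraries, with all 4 intervals against the control holding 100%. For Tomm20 the intervals depend on the length taken, 2680 bases, the median of coding transcripts of 458 and 4902 bases. Its interval with NELL2 began at 99.5%, close to 100%. Tomm20 has 12 near-identical copies elsewhere in the transcriptome, 8 of them in the table, which summed to 3.21, 3.64 and 3.19 FPKM and with them the ratios were 105% and 104%. The related Tomm20l was listed at 0 in every library. Tomm70a shares 41 exon bases with Nit2 on the opposite strand, which was at 11.6, 12.2 and 12.2 FPKM.

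Tomm34, the cytosolic cochaperone, lies on chromosome 2, 164053540 to 164071169, minus strand. It was at 13.5, 13.7 and 13.8 FPKM in control, NELL2 and Fn1 knockdown cells. All 3 values lay within the counting error of each other, and the ratios to the control were 102% (91.5 to 114%) and 103% (92.1 to 114%).

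As a group the members were nearly level with NELL2 apart from Tomm5 and Tomm6. Of the 8, 6 had a ratio above 0 and 2 below, with a median log2 ratio of 0.054 against 0.0072 over all 12572 genes, of which 52.3% lay above 0. Without Tomm5 the median was 0.069. Tomm5 was the 1 member called, the gene picked for that, where 35 genes of 12572 were called lower and 47 higher. The summed FPKM of the 7 other members was 230 in the control and 250 with NELL2, or 109% of the control. Part of that difference was Tomm6, from 9.78 to 19.4 FPKM, which carries the limit of its shared exons. Tomm5 went from 17.0% to 4.72% of the sum over all 8.

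After Fn1 knockdown, all 8 members had a ratio above 0, from 0.0089 in Tomm70a to 0.56 in Tomm6, and none was called. The sign of Tomm70a turned in 1 of the scalings tried. The ratio of Tomm6 carries the limit of its shared exons. The median was 0.19, against -0.0028 over all 12574 genes, of which 49.5% lay above 0. The background of called genes was 0.549% lower (69 of 12574) and 0.684% higher (86 of 12574). The summed FPKM of the 8 members was 114% of the control. Both comparisons use the same control library, so a high or low value there enters both ratios.

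Set directly against NELL2 overexpression, the Fn1 knockdown library was higher in 6 members and lower in Tomm6 and Tomm20. Tomm5 was the 1 member called, with a log2 ratio of 2.04, where the background was 0.627% higher (79 of 12596) and 0.659% lower (83 of 12596). Tomm22 and Tomm40 were each at 114% of the NELL2 library, and Tomm6 was at 76.8%. The other 4 members, Tomm7, Tomm20, Tomm34 and Tomm70a, lay between 98.9% and 104%.

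**Figure D3:**
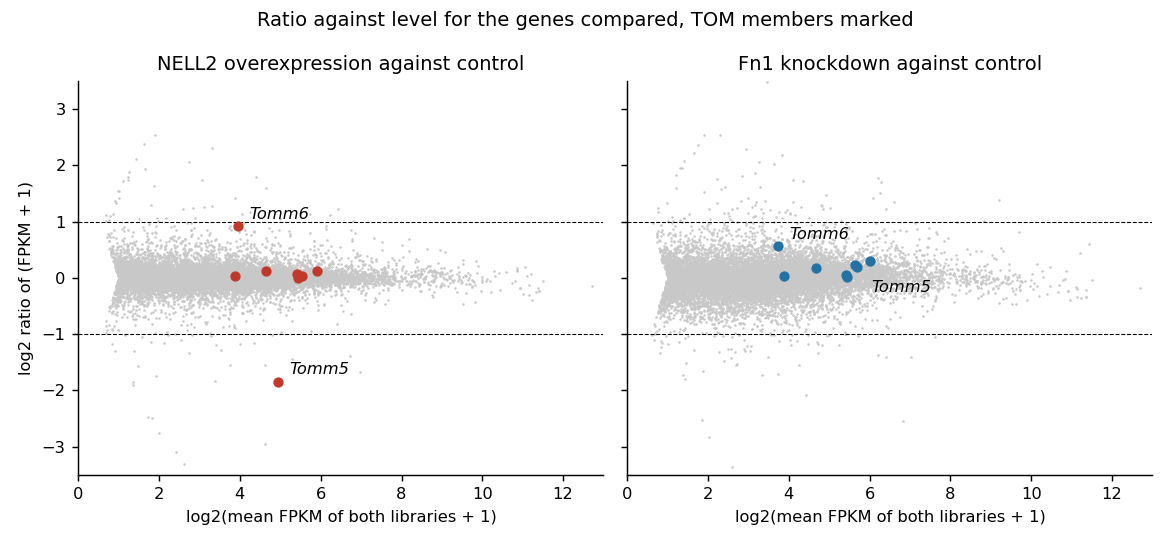
Log2 ratio of FPKM + 1 (y axis) against the log2 mean FPKM of both libraries (x axis) for NELL2 overexpression (12572 genes) and Fn1 knockdown (12574 genes) against the control, with the TOM members as large points and dashed lines at the 2-fold call. Tomm5 lay far under the lower line with NELL2 and at 0.19 after Fn1 knockdown, and 5 and 7 genes fall outside the y axis.

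The genes whose pair of ratios lay nearest to that of Tomm5 were found by Euclidean distance over the 2 comparisons, among the 6150 genes at 10 FPKM or more in the control. They were Noct, Szrd1, Tmed2, Strbp and Pcyt1a, at distances of 0.21 to 0.69. Noct, which encodes the circadian phosphatase nocturnin, was at 15.2, 3.54 and 15.0 FPKM in control, NELL2 and Fn1 knockdown cells. Tmed2, a cargo receptor of the early secretory pathway, was at 152, 57.5 and 166 FPKM. Pcyt1a, which makes CDP-choline for phosphatidylcholine, was at 27.1, 11.6 and 31.0 FPKM.

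Szrd1 was at 56.0, 19.9 and 59.1 FPKM, and Strbp, an RNA-binding protein, at 13.7, 5.40 and 14.3 FPKM. The 5 were picked for ratios near those of Tomm5, so their shared pattern follows from that choice. In all 5 the NELL2 library was the lowest, at 23.3 to 42.9% of the control, and the Fn1 knockdown library was at 98.5 to 115%. No other TOM member was among them, although Tomm6, at 9.78 FPKM in the control, was below the level searched. None of the 5 has an exon overlap with another gene on the same strand, while Szrd1 and Strbp each overlap 1 gene and Pcyt1a 2 genes on the opposite strand. Altogether 15 of the 6150 genes fell 2-fold with NELL2, 6 of these also fell 2-fold after Fn1 knockdown, and 5, including Tomm5, had a ratio above 0 there. The likeness rests on 3 libraries, so it is a description of values only.

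**Figure D4:**
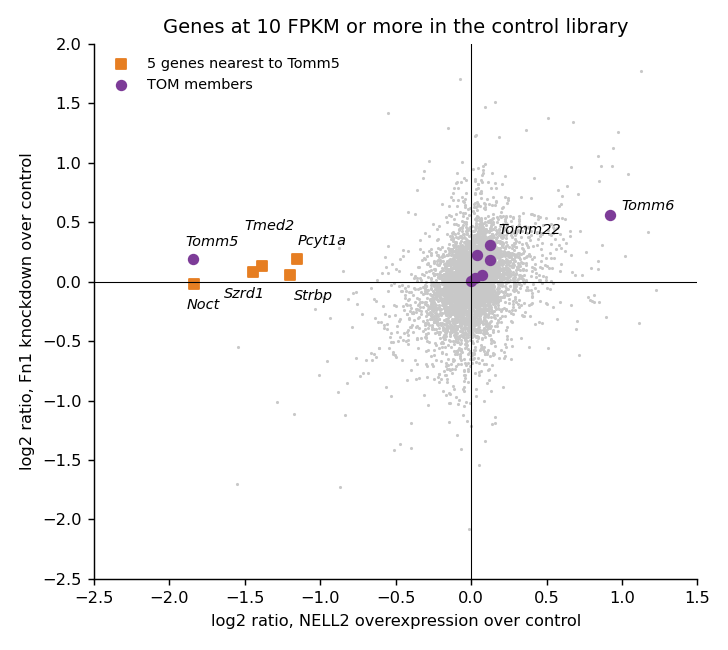
Log2 ratio with NELL2 overexpression (x axis) against log2 ratio after Fn1 knockdown (y axis), both over the same control library, for the 6150 genes at 10 FPKM or more in the control, of which 7 fall outside the axes, and for all TOM members, with Tomm6 added at 9.78 FPKM in the control. Tomm5 and its 5 nearest genes (squares) lie far left at about 0 on the y axis, Tomm6 lies to the upper right, and the other TOM members lie near the origin.

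The rest of the import pathway was read together with other outer membrane proteins, transcription factors and stress genes. These made 9 lists with 84 genes, 81 of which reached 1 FPKM. None was called in either comparison, against the shares over all genes of 0.278% lower and 0.374% higher with NELL2 and 0.549% and 0.684% after Fn1 knockdown. With NELL2, 48 had a ratio above 0 and 33 below, with a median of 0.033, while 52.3% of all genes were above 0. After Fn1 knockdown the numbers were 41 and 40, with a median of 0.0047. The ratios ranged from -0.36 to 0.36 with NELL2, with the transcription factor gene Nrf1 and the outer membrane protein gene Tspo at the ends. Tomm6, with its shared exons, lay outside that range at 0.92. After Fn1 knockdown the range was -0.41 to 0.58, and all 8 TOM members lay inside it.

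The TIM complexes take over from TOM at the inner membrane. In the 13 genes of the TIM23 translocase and its motor the medians were 0.0025 with NELL2 and 0.023 after Fn1 knockdown. The largest ratios were in Timm44, which tethers the motor, from 14.6 to 12.9 FPKM with NELL2, and in the motor chaperone Hspa9, from 224 to 168 FPKM after Fn1 knockdown. The 9 genes of TIM22 and the small TIM chaperones had medians of 0.16 and 0.25, with 8 and 6 above 0. Timm22, the carrier translocase, went from 9.89 to 12.0 FPKM with NELL2, and Timm10b, a small TIM chaperone, from 14.4 to 21.6 FPKM after Fn1 knockdown.

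The SAM complex inserts barrel proteins into the outer membrane, MICOS organises cristae, the MIA relay oxidises proteins of the intermembrane space, and presequence peptidases trim precursors after import. The 11 genes of SAM and MICOS had medians of 0.054 and 0.083. The largest values were in Minos1, a core MICOS subunit, from 23.3 to 26.9 FPKM with NELL2, and Samm50, the central SAM subunit, from 45.3 to 57.8 FPKM after Fn1 knockdown. The 3 genes of the MIA relay had medians of 0.15, with all 3 above 0, and 0.33, with 2 above 0. Among them the oxidoreductase gene Chchd4 had the largest ratios, at 3.11, 4.02 and 5.12 FPKM in control, NELL2 and Fn1 knockdown cells. The 7 genes of presequence processing and export had medians of 0.027 and -0.093, with 5 above 0 with NELL2 and 6 below 0 after Fn1 knockdown. Oxa1l, an inner membrane insertase, went from 16.3 to 17.9 FPKM with NELL2. Immp2l, a peptidase gene, was at 2.74 FPKM in control cells and at 72.9% of that after Fn1 knockdown.

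Other outer membrane proteins gave a median of 0.034 with NELL2 and -0.018 after Fn1 knockdown over 15 genes. Tspo, the translocator protein, went from 78.0 to 101 FPKM with NELL2, a log2 ratio of 0.36, and the fission gene Fis1 from 71.4 to 57.2 FPKM after Fn1 knockdown. The 7 genes of cytosolic precursor delivery, the list nearest to Tomm34 in role, had 6 and 5 genes below 0. With NELL2 the largest ratio was in Hsp90aa1, a chaperone gene, which went from 190 to 158 FPKM.

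The transcription factors known for nuclear mitochondrial genes gave no call either, with medians of -0.013 and -0.063 over 8 genes. Nrf1 went from 9.25 to 7.01 FPKM with NELL2, and Esrra from 10.2 to 12.8 FPKM after Fn1 knockdown. Over 8 genes of the mitochondrial stress response the medians were 0.049 and 0.19. Ddit3, a stress-induced transcription factor, went from 57.7 to 69.0 FPKM with NELL2, and the chaperonin gene Hspd1 from 164 to 219 FPKM after Fn1 knockdown. The 13 mitochondrially encoded genes, whose products are made inside the organelle and do not pass TOM, were all below 0 in both comparisons, with mt-Nd6, a complex I subunit, from 859 to 619 FPKM with NELL2 and 621 FPKM after Fn1 knockdown. Of the TOM members, Tomm5 and Tomm70a were below 0 with NELL2, the latter at -0.0023, and none was after Fn1 knockdown.

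**Figure D5:**
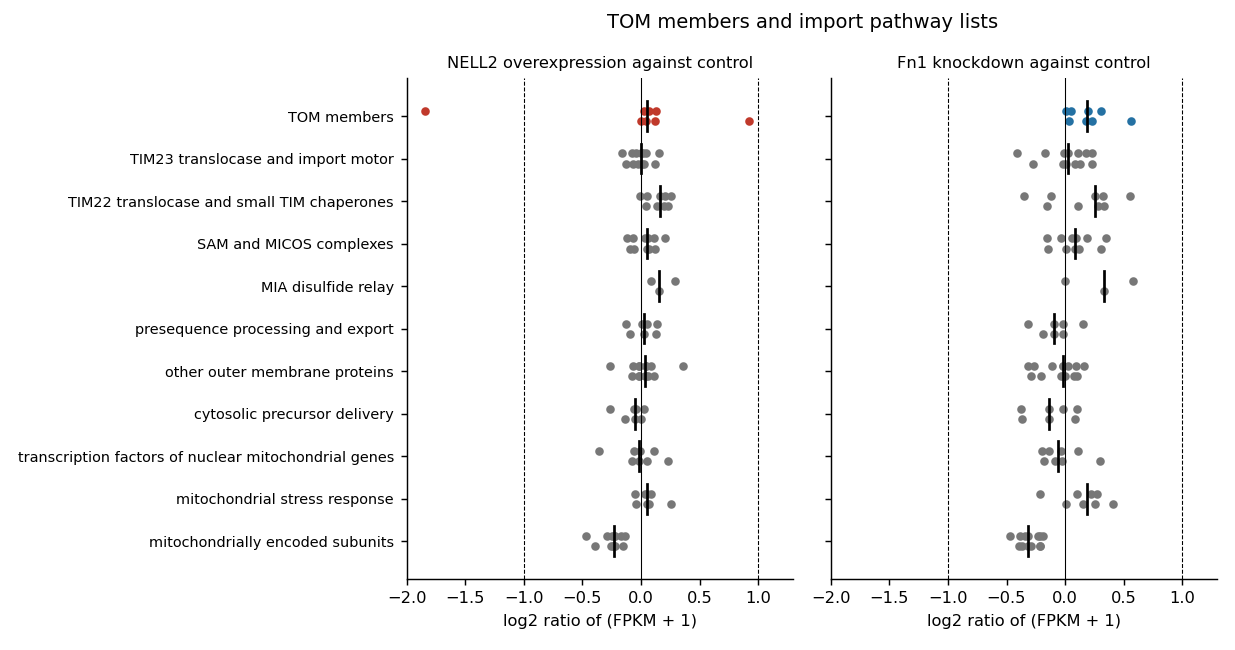
Log2 ratio of FPKM + 1 (x axis) of the TOM members and of each gene at 1 FPKM or more in the 10 pathway lists (y axis), 1 point per gene with a bar at the median, for both comparisons with the control and with dashed lines at the 2-fold call. Tomm5 with NELL2, at -1.84, is the only point past a dashed line, and the mitochondrially encoded genes all lie below 0.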

How the data were processed

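Polyadenylated RNA from 3 ST2 libraries was sequenced by the authors as 150-base paired ends on an MGISEQ-2000. The authors deposited FPKM, 1 value per gene and library. The submitters' processing notes name HISAT2, DESeq and GRCm38 without versions, and the program that computed FPKM, its annotation and the use of strand are not given in the sources used here. FPKM of genes that share exons depends on how reads were divided.

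From these values, log2(FPKM + 1) ratios were computed in Python 3.11.15 (pandas 2.3.3, numpy 2.4.6), with a filter of 1 FPKM in either library and a call at 2-fold, since 1 library per group allows no test. The code of the calling rule was run on a copy of the control library in which 200 genes were multiplied by known folds. No counting error or spread was added, so that run gives no error rate for the calls. Fragments were estimated from FPKM, the median length of coding transcripts in GENCODE M21 and a depth taken from the most frequent low value of FPKM times length. Exact Poisson and Clopper-Pearson 95% intervals (scipy 1.17.1) on these fragments cover counting error only. Copies were transcripts aligned over 150 bases or more at 90% identity (BLAST 2.17.0). Promoter windows are from RefSeq (GRCm38.p6), with 7 of 8 members matched. Protein lengths came from the annotated coding sequences.

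The members and lists were chosen with earlier results of these data known. Genes named were Nell2, Fn1, the members, other rows named Tomm, the largest ratio in each list, the neighbours of Tomm5 and the 5 genes nearest to its pair of ratios. The largest ratio of 1 list after Fn1 knockdown is not reported here. Genes that share exons or sequence with a member, and Gm27640 and Pcdhgb8, which ranked above Tomm5, were named after their values were seen. The alternatives tried were other pseudocounts (0.1 and 5), filters, scalings and a 1.5-fold cutoff.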

Additional observations from a re-analysis of the deposited data

How the results depend on the processing

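Tomm5 remained the 1 TOM member past 2-fold with NELL2 under both other pseudocounts, both other filters and the 3 other scalings, with a log2 ratio of -1.92 to -1.58. It was picked for that fall, and the scalings changed the control and NELL2 libraries almost alike. Its call under these settings is a description and no check of the fall. At a 1.5-fold cutoff 2 members were past it, with Tomm6 added. No member was called after Fn1 knockdown under any of these settings, the 1.5-fold cutoff included. Filters and cutoffs leave a ratio as it is. Of the 80 ratios of members under the other pseudocounts and scalings, 80 kept their side of the cutoff and 79 their sign. The exception in sign was Tomm70a after Fn1 knockdown, at -0.024 when libraries were scaled to equal medians. In an alternative chosen after seeing the data, Tomm6 and Gm21981 were summed by length, and the log2 ratio of that sum was -0.14 with NELL2 and -0.048 after Fn1 knockdown, against 0.92 and 0.56 for Tomm6 alone. Tomm6 gives about 151 of the 1033 control fragments and 309 of the 966 with NELL2, and the plain FPKM sum was at 124% and 114% of the control.

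The counts over all genes moved more. With NELL2, 82 genes were past 2-fold, against 178 with a pseudocount of 0.1, 26 when it was 5, 47 with the 5 FPKM filter, 125 on the TPM scale and 325 at 1.5-fold. After Fn1 knockdown the count was 155, against 358 and 50 with these pseudocounts, 118 with the 5 FPKM filter, 245 on the TPM scale and 784 at 1.5-fold. Of the 784, 367 were higher and 417 lower, whereas 86 of the 155 were higher. With a pseudocount of 0.1 the split was 179 and 179. On the TPM scale a pseudocount of 1 weighs less, since TPM values are 2.51 to 2.52 times the FPKM. The filter of 1 FPKM could not be told from none at a pseudocount of 1, because a gene under 1 FPKM in both libraries cannot differ by 2-fold.

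No paired analysis was possible because every group is 1 library. No library was left out and no spread within a group was measured, so counting intervals understate the error. Depth was estimated and not stated, and Tomm6, with about 151 fragments in the control, had the widest control interval relative to its level.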
